A study of Schizosaccharomyces pombe with 6 samples.

Results

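The locus described here is a stretch of 27 kb on chromosome I of fission yeast (Schizosaccharomyces pombe), from 3434001 to 3461000 in array positions, in which RPA signal rises to a peak beside rpt5 and trails over dpe1 towards cul4. Its members are the 91 probes whose midpoints lie in that interval, of 42641 nuclear probes on the array. After 1 probe with an outlier flag was left out, 90 members were used, with a median spacing of 302 bp. The interval holds the genes pkl1, pfd6, rpt5, dpe1, sod22 and cul4. It was chosen because log2(IP/input) is high there in these same arrays, so the levels below are descriptions, and calls of enrichment on them describe the peak and support nothing. The difference between the strains did not enter the choice and was tested.

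RPA is the protein complex that coats single-stranded DNA, and Ssb1, the subunit precipitated per the series title, is its large subunit. Hydroxyurea (HU) blocks the enzyme that makes deoxyribonucleotides, so that replication forks slow and stretches of template stay unpaired and are bound by RPA. Rad3, the fission yeast relative of the checkpoint kinase ATR, is recruited to RPA-coated DNA and holds back late origins and mitosis while replication is impaired.

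Each strain had 3 two-colour arrays that set an immunoprecipitate (IP) against its own input. The strain called WT in the labels is a cdc25-22 mutant, and the other strain is cdc25-22 rad3∆; both groups therefore carry cdc25-22, a temperature-sensitive allele of the mitosis-promoting phosphatase gene. All cells were blocked for 4 h at 36.5 °C, released at 25 °C and given 6 mM HU, and every title carries the number 60 with no unit. The labels give the molecule as total RNA, so reading the channels as IP and input DNA is an assumption under every value here. One input label of rad3∆ array 3 names cdc25-23 in place of cdc25-22, and the labels do not say whether replicates were separate cultures, so that p-values measure only the spread between these arrays.

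The deleted gene was read in the input channel of each array first. Over the 33 probes inside rad3, the 3 WT arrays had median log2 input signals of -0.34, -0.17 and -0.40 against the array median, and the 3 rad3∆ arrays had -7.28, -4.97 and -5.10, so each array matched its label. The rad3∆ array 2 was dim, with a median background-subtracted IP signal of 41.4 against 241 to 1143 on the other 5 arrays. At the locus, input was well above background on all 6 arrays for all 90 probes, no probe was saturated, and 9 probes were not well above background in the IP channel of rad3∆ array 2.

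The sequence under the summit is described here, and its part in the signal was not tested. The highest probe of the locus lies at I:3443134-3443193, in the gap between pfd6 and rpt5, and 11 of its 60 bases are the end of a tRNA-Arg gene, SPATRNAARG.01, at I:3443055-3443144 on the plus strand. The midpoint of the probe is 19.5 bp past the end of the tRNA gene and 767.5 bp before the start of the rpt5 transcript. The summit is thus nearest a tRNA gene, and none of rpt5, dpe1 and cul4 holds it. A tRNA gene is transcribed by RNA polymerase III from a promoter inside the gene, and in budding yeast tRNA genes are known as places where forks can pause. The window below, from the ASM294v3 reference, plus strand, at I:3442950-3443249, is shown because it carries the summit; capitals mark the 2 exons of the tRNA gene, and the lower-case bases between them are its intron of 18 bp.
SPATRNAARG.01 with flanks: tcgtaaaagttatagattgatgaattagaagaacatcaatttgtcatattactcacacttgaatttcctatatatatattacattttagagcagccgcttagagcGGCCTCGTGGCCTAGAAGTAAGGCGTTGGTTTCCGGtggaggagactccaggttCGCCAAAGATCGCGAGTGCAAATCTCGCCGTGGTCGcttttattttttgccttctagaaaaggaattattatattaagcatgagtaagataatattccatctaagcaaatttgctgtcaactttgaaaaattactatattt

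In the 20 bases after the gene, on its own strand, the first TTTT began 1 base past the gene end and the longest run of T was 6 bases; runs of T end transcription by RNA polymerase III. TTTT was found in the same 20 bases after 160 of 171 tRNA genes of the reference (93.6%) and in 17.3% of all 20-base tiles, both strands counted. Of the 171 tRNA genes, 1 has this mature sequence, namely SPATRNAARG.01 itself. The summit probe's best match at another place in the reference had 31 identical bases, and the highest such number among the 90 probes was 49, for a probe that lies in rps1401.

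All levels are log2(IP/input) with the array median at 0 and are listed in the order of arrays 1, 2 and 3. The summit probe read 2.83, 1.59 and 3.06 in WT and 2.41, 1.47 and 2.39 in rad3∆. Since whole cultures were measured, more RPA per chromosome and more chromosomes with RPA cannot be told apart. Both array 2 values were the lowest of their strain, and the strains overlapped. In the fit over all 42430 probes used, this probe ranked at place 2 in WT and at place 5 in rad3∆. The fitted strain difference, rad3∆ minus WT, was -0.41 ± 0.36 (SE) with a limma adjusted p of 0.9999.

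The peak rose steeply on its left side. From left to right, the WT means of the 4 probes before the summit were -0.01, 0.26, 0.69 and 1.60, and the rad3∆ means were -0.02, 0.04, 0.61 and 1.24. The rise thus took place between pfd6 and the tRNA gene, over 3 intergenic probes. pfd6, which encodes a subunit of the prefoldin chaperone that hands new actin and tubulin chains to the chaperonin CCT, was itself not high. Its 2 probes averaged 0.10, -0.66 and -0.02 in WT and -0.10, -0.43 and -0.17 in rad3∆. These values straddled or lay below the array median, and the strains overlapped.

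**Figure D1:**
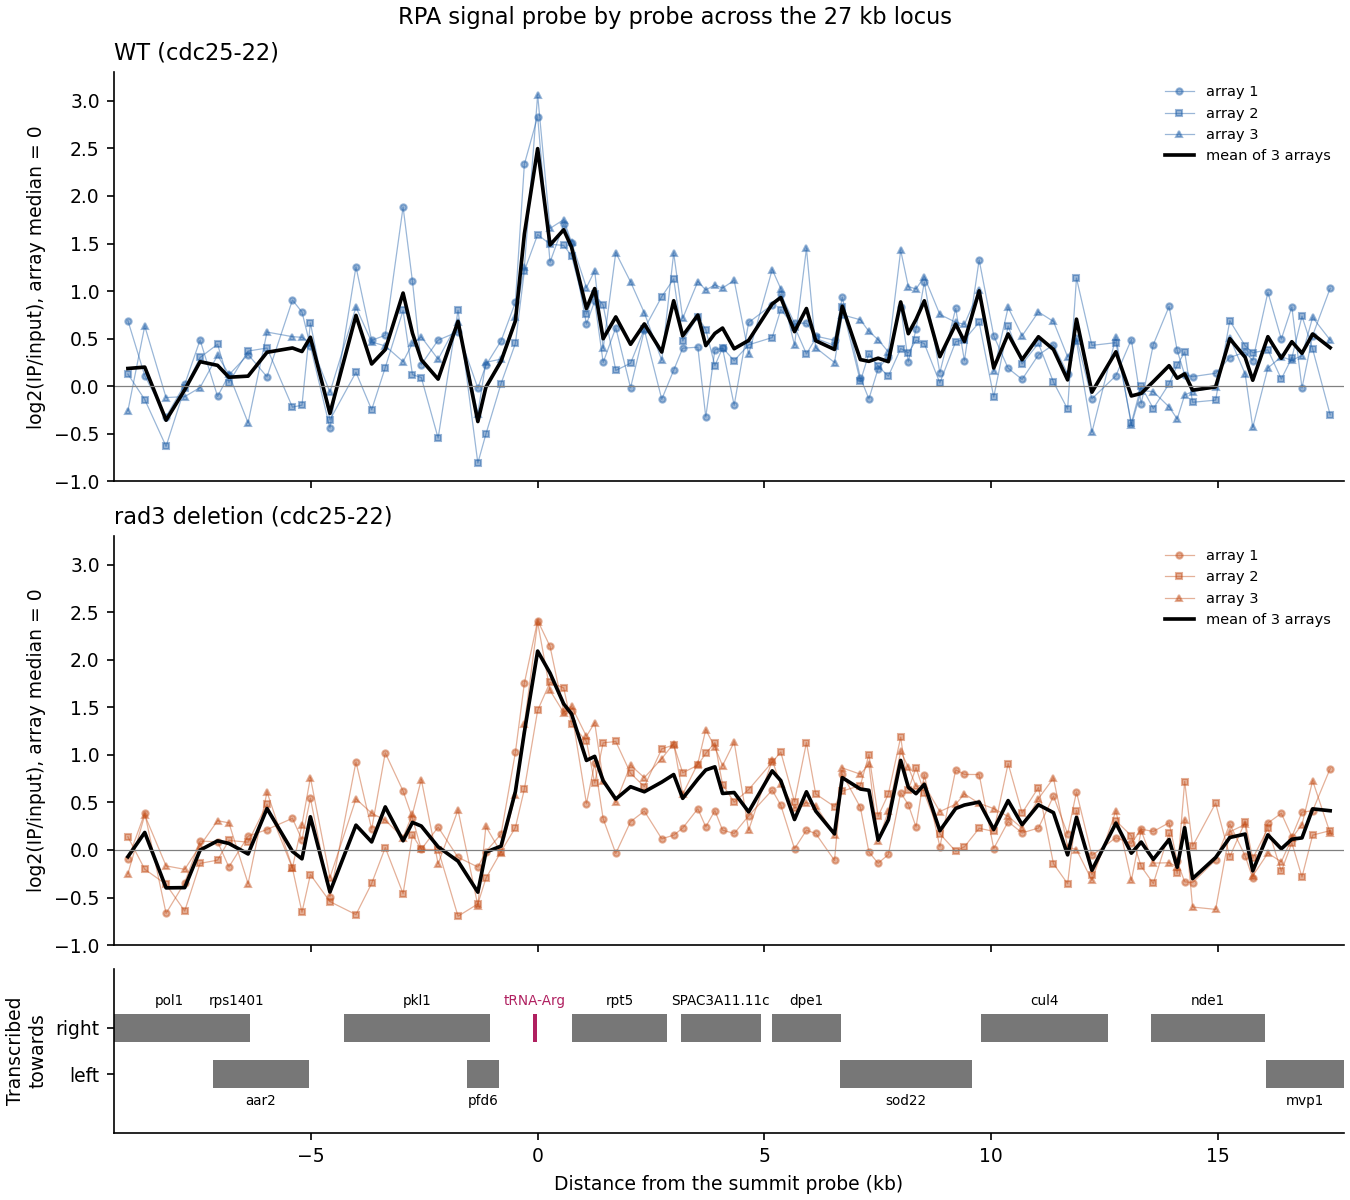
The panels show log2(IP/input) of each of the 90 probes against distance from the summit probe in kb, for WT above and rad3∆ below, with 3 arrays as thin lines, their mean as a black line, and the genes drawn to scale at the bottom. The mean reaches 2.50 in WT and 2.09 in rad3∆ at the tRNA-Arg gene, falls sharply to the left and trails to the right over rpt5, dpe1 and sod22.

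To the right, the gap from the tRNA gene to rpt5 held the highest stretch of the locus. Its 4 probes, the summit included, averaged 1.84, 1.49 and 2.0 in WT and 1.87, 1.56 and 1.76 in rad3∆. These 4 probes, and no other member, were at least 1 on all 6 arrays. The 1 kb window that holds them, from 3443001, was the highest window of the locus on every array, with 1.77 ± 0.26 (SD, n = 3) in WT and 1.73 ± 0.15 in rad3∆. The fitted strain difference of this window was -0.04 ± 0.17 (SE), with a limma adjusted p of 0.98.

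The stretch just before rpt5 is shown next because it is where the signal stayed high up to the gene's start. It covers the 250 bases before the annotated transcript start at I:3443681-3443930, plus strand, from ASM294v3, and capitals mark runs of A or of T of at least 6 bases.
rpt5 upstream: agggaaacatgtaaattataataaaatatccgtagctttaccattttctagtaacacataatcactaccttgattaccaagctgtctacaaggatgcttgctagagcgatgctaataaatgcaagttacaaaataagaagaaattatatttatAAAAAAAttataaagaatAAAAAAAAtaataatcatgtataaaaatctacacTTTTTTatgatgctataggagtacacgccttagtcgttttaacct

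This stretch had 3 such runs, the longest of 8 bases, and an A+T content of 72.8%. Among 5112 upstream stretches of the same length before protein-coding genes, 59.5% held at least 1 such run, and the median A+T content was 68%. The 3 probes that follow the summit and lead up to rpt5, the last 2 of them over this stretch, had WT means of 1.49, 1.64 and 1.46 and rad3∆ means of 1.86, 1.54 and 1.43. The signal thus stayed high up to the start of rpt5 in both strains.

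Across the locus, A+T content was 63.2%, against a median of 64% over 10259 windows of the reference. The 27 windows ranged from 57.5% to 72.4%, and the summit window, at 69.5%, was second to the window on its left. That neighbour had a WT level of 0.63 and a rad3∆ level of 0.47, and the summit window had 1.77 and 1.73. The neighbour's probes ran from a WT mean of -0.01 at its left to 1.60 beside the tRNA gene. A link between A+T content and signal was not tested.

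rpt5 encodes an ATPase of the base of the proteasome's regulatory particle, which unfolds proteins and feeds them into the protease. Over its 7 probes, rpt5 averaged 0.41, 0.65 and 0.89 in WT and 0.36, 0.95 and 0.91 in rad3∆. The arrays numbered 1 were the low ones in both strains, and the strains overlapped. The fitted difference was 0.09 ± 0.17 (SE; limma adjusted p = 0.95), and it turned to -0.09 without rad3∆ array 2 and to -0.02 with a different background correction.

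Next to rpt5, SPAC3A11.11C, annotated as a pyridoxal reductase, averaged 0.25, 0.45 and 0.91 in WT and 0.29, 0.81 and 0.87 in rad3∆. Again both arrays numbered 1 were lowest. Its fitted difference was 0.12 ± 0.16 (SE; limma adjusted p = 0.91).

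dpe1, annotated as a dipeptidyl peptidase, averaged 0.69, 0.54 and 0.80 in WT and 0.23, 0.77 and 0.53 in rad3∆. The lowest value was that of rad3∆ array 1, while rad3∆ array 2 lay within the WT range. The fitted difference was -0.16 ± 0.16 (SE; limma adjusted p = 0.86), and the differences on the 3 slides were -0.46, 0.24 and -0.27. It was -0.02 without rad3∆ array 1 and -0.33 without rad3∆ array 2.

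sod22 encodes a sodium ion and proton antiporter of the plasma membrane and is transcribed from the other strand, towards dpe1. Its 12 probes averaged 0.45, 0.35 and 0.80 in WT and 0.40, 0.56 and 0.65 in rad3∆. The fitted strain difference was 0.00 ± 0.13 (SE; limma adjusted p = 0.998).

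The short gap between the divergent genes sod22 and cul4 carried a local rise. Its 1 probe read 1.33, 0.67 and 1.01 in WT and 0.79, 0.23 and 0.49 in rad3∆. The rad3∆ minus WT differences on the 3 slides were -0.54, -0.44 and -0.52, all below 0. The strains overlapped, and the exact two-sided permutation p was 0.20, from a test that does not use the pairing by slide. Exact sign flips of 3 slides cannot give a p under 0.25, so that paired test could not decide this either. In the alternative fit with a term for slide, 0 probes of the locus were called at a limma adjusted p under 0.05. The gap is given whole because it is the shared upstream region of both genes; it covers I:3452750-3452944, plus strand, from ASM294v3, with runs of A or of T of at least 6 bases in capitals.
sod22 to cul4 gap: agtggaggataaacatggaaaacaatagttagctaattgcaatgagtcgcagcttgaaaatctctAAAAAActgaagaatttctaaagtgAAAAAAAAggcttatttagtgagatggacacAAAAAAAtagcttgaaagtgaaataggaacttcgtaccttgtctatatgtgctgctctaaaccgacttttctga

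This gap held 3 runs, the longest of 8 bases, and 66.2% A+T.

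cul4 encodes the scaffold of a cullin ubiquitin ligase. In fission yeast it acts with Ddb1 and Cdt2 to remove the replication factor Cdt1 and the ribonucleotide reductase inhibitor Spd1, and it is also a subunit of CLRC, the complex that methylates histone H3 in heterochromatin. Its 8 probes averaged 0.26, 0.32 and 0.41 in WT and 0.25, 0.23 and 0.25 in rad3∆. The rad3∆ values lay just below all WT values, with differences of -0.01, -0.10 and -0.16 on slides 1, 2 and 3. The exact two-sided permutation p of 0.10 is the smallest that 3 arrays against 3 can give, and 4.32% of 4144 protein-coding genes had every rad3∆ array below every WT array. cul4 was the only 1 of the 12 coding genes of the locus to do so, and 0 of the 12 lay entirely above, against 5.74%. In the limma fit over all genes the difference was -0.09 ± 0.12 (SE; adjusted p = 0.92).

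pkl1 encodes a kinesin of the kinesin-14 family, which walks to the minus end of microtubules and works at the spindle poles. Over 10 probes it averaged 0.67, 0.01 and 0.39 in WT and 0.31, -0.29 and 0.24 in rad3∆. Its probes at I:3439127-3439186, I:3440939-3440998 and I:3441378-3441437 were not well above background in the IP channel of rad3∆ array 2. The rad3∆ minus WT differences of pkl1 on the slides were -0.37, -0.29 and -0.14, all below 0, while levels within each strain also varied between slides. In an alternative fit with a term for slide, the limma adjusted p was 0.39. The fitted difference was -0.27 ± 0.21 (SE; limma adjusted p = 0.80). It was -0.06 without WT array 1, -0.08 without rad3∆ array 2, -0.44 without WT array 2 and -0.42 without rad3∆ array 1.

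Most genes at the ends of the locus were near the array median or slightly above it, while mvp1 was higher. On the left these were pol1, which encodes the catalytic subunit of DNA polymerase alpha, aar2, a splicing factor gene of the U5 snRNP, and rps1401, which encodes the ribosomal protein uS11. Their WT means were 0.13, 0.26 and 0.10, and their rad3∆ means were -0.02, 0.08 and 0.01. On the right, nde1, which encodes an NADH dehydrogenase, had means of 0.14 in WT and -0.03 in rad3∆, and mvp1, a sorting nexin gene that runs past the right end, had 0.52 and 0.38. The values of pol1, which runs past the left end, and of mvp1 include probes outside the locus. Over the 6 probes of each inside it, pol1 averaged 0.08 in WT and -0.10 in rad3∆, and mvp1 0.43 and 0.21. The probe just inside the left end averaged 0.19 in WT and the one just outside 0.27. At the right end the probe just inside averaged 0.41 and the one just outside 0.66, so the interval ends on ground that is not flat.

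**Figure D2:**
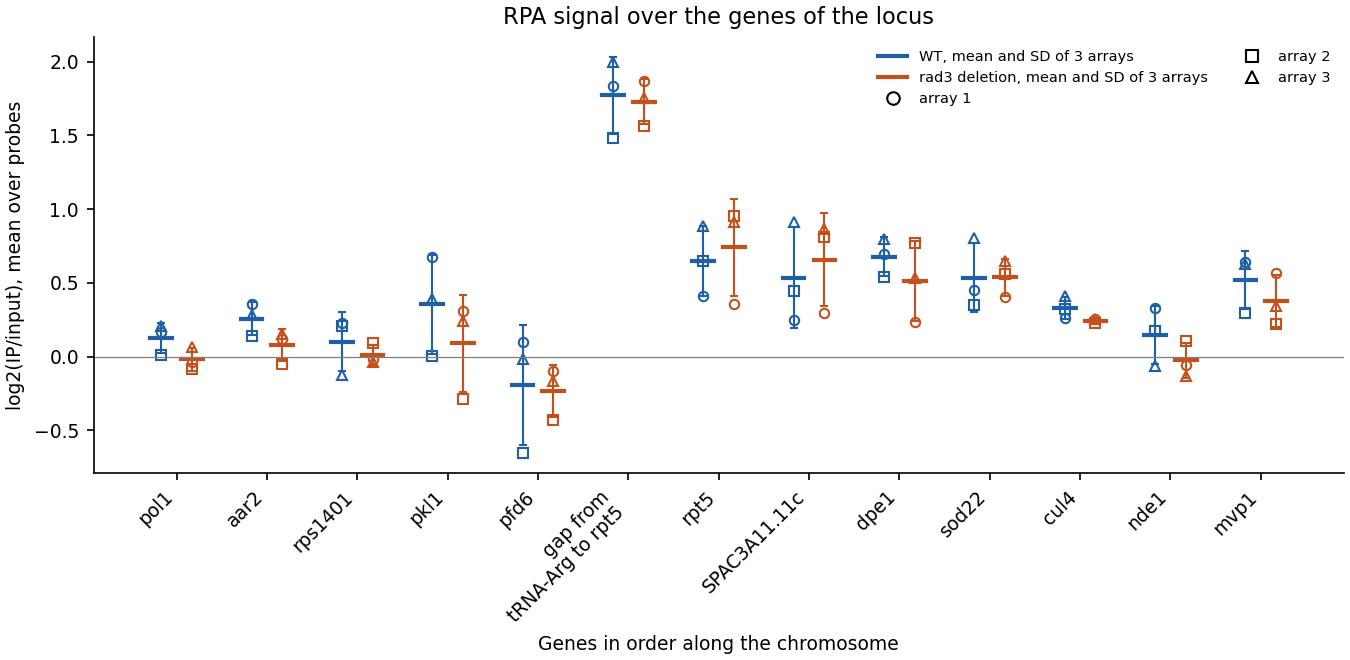
Each point is the mean log2(IP/input) over the probes of 1 gene on 1 array, in WT (blue) and rad3∆ (orange), with the strain mean and SD of 3 arrays, for the 12 protein-coding genes in map order and for the gap from the tRNA gene to rpt5. The gap stands at 1.49 to 2.0 in WT and no gene reaches it, while rpt5, SPAC3A11.11C, dpe1 and sod22 form the shoulder. Circles (arrays numbered 1) are lowest in both strains at rpt5 and SPAC3A11.11C. At dpe1 and sod22 they are lowest in rad3∆ only. The points of pol1 and mvp1 include probes outside the locus.

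In order of WT level, the members ran dpe1 (0.68 ± 0.13, SD), rpt5 (0.65 ± 0.24), sod22 (0.53 ± 0.24), pkl1 (0.36 ± 0.34), cul4 (0.33 ± 0.08) and pfd6 (-0.19 ± 0.41). In rad3∆ the order was rpt5 (0.74 ± 0.33), sod22 (0.54 ± 0.13), dpe1 (0.51 ± 0.27), cul4 (0.24 ± 0.02), pkl1 (0.09 ± 0.33) and pfd6 (-0.23 ± 0.18). Apart from the step from cul4 to pfd6 in WT, no neighbours in these orders differed by more than the larger of their SDs. Among 4144 protein-coding genes, rpt5 ranked at place 304 in WT and 130 in rad3∆, dpe1 at 310 and 613, sod22 at 499 and 483, and cul4 at 1017 and 1227.

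A gene or window was called enriched where its fitted log2 value was at least 0.5 (1.41-fold) with a limma adjusted p under 0.05. Of the 12 coding genes, 5 were enriched in WT (rpt5, SPAC3A11.11C, dpe1, sod22 and mvp1) and 4 in rad3∆ (the same without mvp1); the share over all coding genes was 16.5% and 16.2%. pkl1, pfd6 and cul4 were not enriched in either strain. The WT call of mvp1 used 9 probes, of which 6 lie in the locus. Of the 27 windows, 10 were enriched in WT and 7 in rad3∆, and all 7 were among the 10; 18.5% and 18.8% of 12039 windows were enriched. Since the interval was chosen on these levels, nothing is read from the counts. The WT count rests partly on WT array 3, without which it was 4.

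The shoulder was not equally high on all arrays. Between 2 and 4 kb to the right of the summit, the 8 probes averaged 0.19, 0.62 and 0.93 in WT and 0.29, 0.94 and 0.95 in rad3∆. Both arrays of slide 1 were low there, whichever the strain. Between 4 and 6 kb the means were 0.67 ± 0.24 (SD) and 0.58 ± 0.25, between 8 and 10 kb they were 0.68 ± 0.27 and 0.56 ± 0.10, and between 12 and 14 kb they were back at 0.06 ± 0.19 and 0.02 ± 0.10. On the left, the probes 2 to 4 kb away, in pkl1, averaged 0.79, 0.07 and 0.40 in WT and 0.41, -0.10 and 0.30 in rad3∆.

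The right flank was higher than the left on 5 arrays and level with it on WT array 1. The mean over 10 kb to the right of the summit minus the mean over 10 kb to the left was 0.02, 0.46 and 0.60 in WT and 0.22, 0.97 and 0.60 in rad3∆. Slide 1 again had the lowest value in each strain, and the strains overlapped (exact two-sided permutation p = 0.50). The left flank alone had rad3∆ minus WT differences of -0.29, -0.28 and -0.12 on the slides, with an exact p of 0.40 for the strain means. The right flank differed by 0.00 (exact p = 1). Some left-flank probes were not well above background in the IP channel of rad3∆ array 2, among them I:3437726-3437785, I:3442327-3442386 and those named in pkl1. The left value of that array, and its right minus left value of 0.97, rest partly on them.

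**Figure D3:**
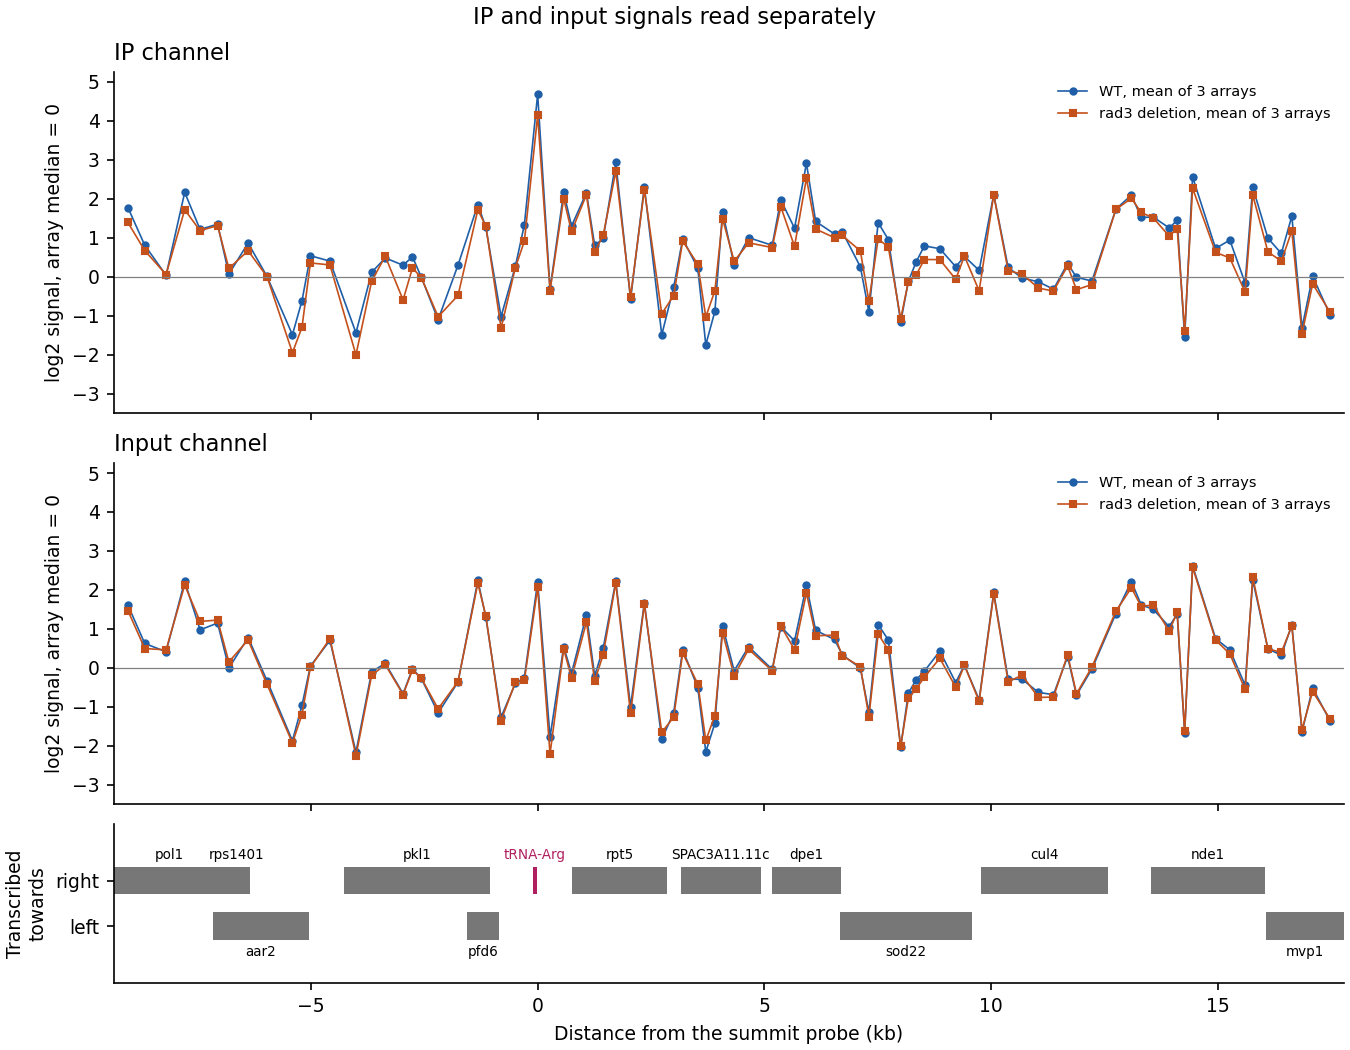
The log2 signal of the IP channel (above) and the input channel (below), each relative to its array median and averaged over 3 arrays, is plotted against distance from the summit probe in kb, for WT (blue) and rad3∆ (orange). At the summit the IP reached 4.68 in WT and 4.14 in rad3∆ while the input was 2.20 and 2.06, and elsewhere the probe-to-probe pattern of the IP follows that of the input.

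Read separately, the channels showed that the summit probe was bright in both. Its IP signal was 4.68 above the array median in WT and 4.14 in rad3∆ on the log2 scale, and its input signal was 2.20 ± 0.64 (SD) and 2.06 ± 0.62 above it. The ratio of 2.50 and 2.09 given above is what remains of its IP signal after division by this input; the part of probe response, of cross-hybridization and of DNA amount in the bright input was not tested. The next probe to the right, which stayed at 1.49 and 1.86 in the ratio, had an input below the array median. In the input channel, none of the 27 windows was called between the strains, with fitted differences from -0.19 to 0.06. The lowest, -0.19 ± 0.11 (SE), was that of the summit window, with an unadjusted limma p of 0.15. A lower input raises the IP/input ratio, so the ratio difference of -0.04 in that window includes this input difference. Genome-wide, 0 of 12039 windows were called (0%) and 33 (0.274%) had an unadjusted limma p under 0.05, none of them in the locus.

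The strain comparison of the IP/input ratio asked whether loss of Rad3 changed RPA signal at the locus. No probe, window or gene of the locus passed the limma test. Of the 27 windows, 0 were called and 1 had an unadjusted p under 0.05, against 0.108% called and 8.11% with an unadjusted p under 0.05 over 12039 windows. All 13 windows called genome-wide were higher in rad3∆. Fitted differences in the locus ran from -0.44 to 0.18, with standard errors of 0.15 to 0.26, and 21 of the 27 were negative. The share of negative differences over all windows was not counted and neighbouring windows are not independent, so no trend is read from this.

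The window with the lowest p began at 3441001 and covers the end of pkl1 and part of pfd6, just left of the rise. Its 2 probes averaged 0.28, 0.00 and 0.19 in WT and -0.13, -0.63 and -0.08 in rad3∆. All rad3∆ values lay below all WT values, and the difference was -0.44 ± 0.18 (SE), with an unadjusted p of 0.032 and a limma adjusted p of 0.55. Of the window's 2 probes, that at I:3441378-3441437 was not well above background in the IP channel of rad3∆ array 2, the array with the lowest value. The window from 3435001, in pol1, was the other one in which every rad3∆ array lay below every WT array. Those 2 of 27 windows compare with 4.63% of windows genome-wide; 0 windows lay entirely above, against 6.06%.

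Among single probes, 0 of 90 were called, as were 0 of 42430 on the whole array (0%), and 2 had an unadjusted p under 0.05, against 5.20% of all probes. Both lie in pkl1. The probe at I:3441378-3441437 read 0.57, 0.80 and 0.67 in WT and -0.08, -0.70 and 0.42 in rad3∆, a difference of -0.80 ± 0.28 (SE, limma adjusted p = 0.94). Its lowest value, -0.70 on rad3∆ array 2, came from an IP signal that was not well above background. The probe at I:3440166-3440225 differed by -0.88 ± 0.39 (SE; limma adjusted p = 0.96), but its WT values of 1.88, 0.80 and 0.26 overlapped the rad3∆ values of 0.62, -0.46 and 0.13. Every rad3∆ array lay below every WT array at 4 probes and above at 1, against 4.05% and 4.79% of all probes.

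Of the 12 coding genes, 0 were called between the strains and 0 had an unadjusted p under 0.05; among the 8192 genes tested, coding and non-coding, 0 were called (0%) and 8.14% had an unadjusted p under 0.05. The lowest adjusted p among the 12 was 0.77, for aar2.

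**Figure D4:**
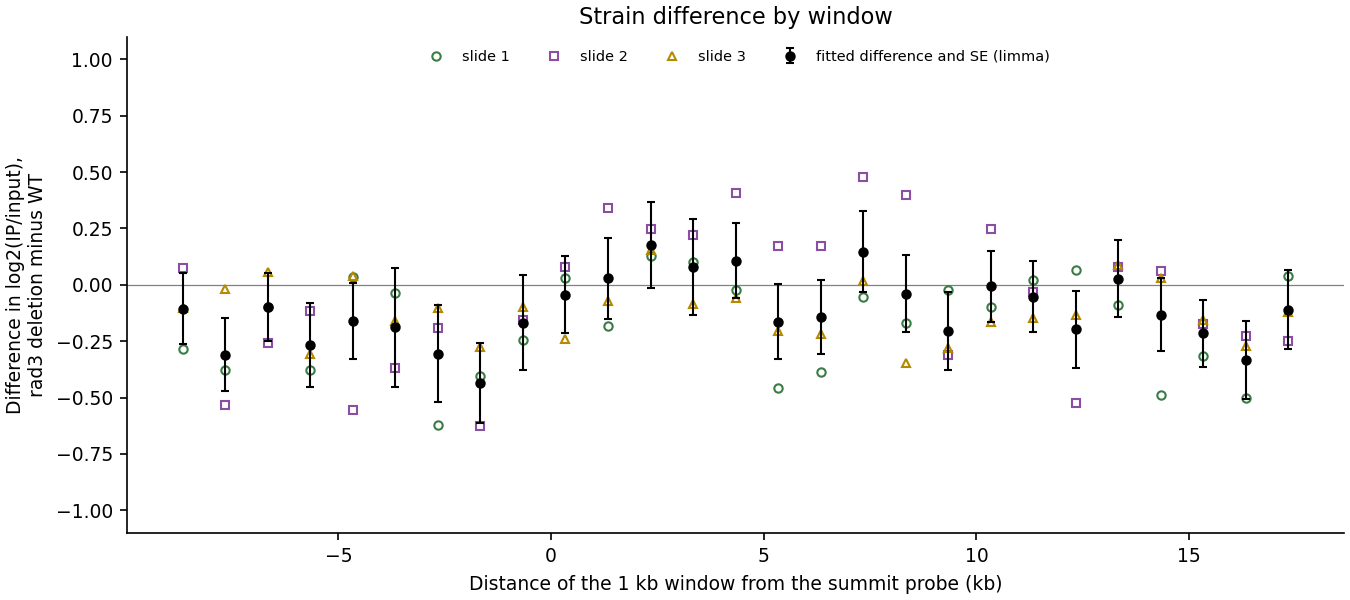
The difference in log2(IP/input), rad3∆ minus WT, is shown for the 27 windows of 1 kb against distance from the summit probe in kb, as the fitted value with its SE (black) and as the difference on each slide (coloured symbols). The lowest fitted value is -0.44 just left of the summit, and slide 2 lies above 0 over most of the right shoulder.

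For one value per array, the mean over the 90 probes was 0.51, 0.35 and 0.56 in WT and 0.33, 0.34 and 0.44 in rad3∆. The strains overlapped, and the difference of -0.10 had an exact two-sided permutation p of 0.20. Within slides the differences were -0.18, -0.01 and -0.12, and exact sign flips of these 3 gave a p of 0.25, the smallest that 3 slides allow. The core, an 11 kb run from 3442001 to 3453000 in which 10 windows were enriched on the mean of both strains, averaged 0.64, 0.57 and 0.95 in WT and 0.53, 0.76 and 0.81 in rad3∆, a difference of -0.02 with an exact p of 0.90. The slides went both ways, at -0.11, 0.19 and -0.14. The stretch of windows at or above 1/2 of the peak height was 2, 1 and 2 kb wide in WT and 1, 4 and 2 kb in rad3∆ (exact p = 0.90).

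The core was also set against the 2 highest enriched regions outside the locus, taken from runs of at least 2 enriched windows. Regions over rad3 or reaching position 3700001 or beyond on chromosome I, where genes were not placed, were not eligible. The first is the 6 kb region from I:2578001 to 2584000, over cdc3, the profilin gene, and tif303, which encodes a subunit of translation initiation factor eIF3. The second is the 12 kb region from II:1647001 to 1659000, which includes yox1, a repressor gene of the G1/S transcription programme, and rec6, a meiotic recombination gene. Core minus first region was 0.04, 0.01 and 0.20 in WT and -0.09, 0.00 and -0.29 in rad3∆. The strains did not overlap, and the difference of -0.21 had an exact two-sided p of 0.10, the smallest possible, but on the slides it was -0.13, 0.00 and -0.48, so that 1 slide showed almost none; sign flips within slides gave 0.25. Core minus second region was -0.08, -0.12 and -0.05 in WT and -0.07, 0.10 and -0.03 in rad3∆, a difference of 0.09 with an exact p of 0.20 and, within slides, of 0.25.

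Each of these regions also has a tRNA gene in its highest window. They are printed side by side because the highest windows of all 3 regions share this feature; each is from ASM294v3 on the gene's own strand, with exons in capitals and any intron in lower case, at I:3443055-3443144 (plus), I:2578426-2578524 (plus) and II:1647283-1647355 (minus).
SPATRNAARG.01: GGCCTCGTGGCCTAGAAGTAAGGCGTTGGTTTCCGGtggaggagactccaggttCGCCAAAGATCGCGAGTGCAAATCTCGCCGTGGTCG
SPATRNAILE.02: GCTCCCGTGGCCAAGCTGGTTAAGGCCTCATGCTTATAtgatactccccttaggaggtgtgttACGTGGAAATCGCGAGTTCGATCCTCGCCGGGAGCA
SPBTRNAARG.07: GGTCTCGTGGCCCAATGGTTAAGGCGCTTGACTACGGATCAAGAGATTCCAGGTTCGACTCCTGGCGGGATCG

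The mature sequence of SPATRNAARG.01 was 61.3% identical to that of the tRNA-Ile gene and 63.0% identical to that of the second tRNA-Arg gene. The observation that tRNA genes lie under these peaks was made after the values were seen and was given no test.

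Over the genome, 116 of 151 placed tRNA genes had a probe whose midpoint was within 250 bp of the gene's middle, through 114 distinct probes. Over the 116 genes, with a shared probe counted for each of its genes, the median fitted value was 0.88 in WT and 0.95 in rad3∆, above the array median of 0. The tRNA-Arg gene of the locus ranked at place 2 of 116 in WT and at place 4 in rad3∆; SPBTRNAARG.07 ranked at place 1 in both, with 2.51 ± 0.59 (SD) and 2.53 ± 0.49. Of the 10 highest windows, 7 in WT and 5 in rad3∆ held a tRNA gene, and of the 50 highest 17 and 16 did, while 1.14% of the 10249 windows in the annotated regions held one.

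**Figure D5:**
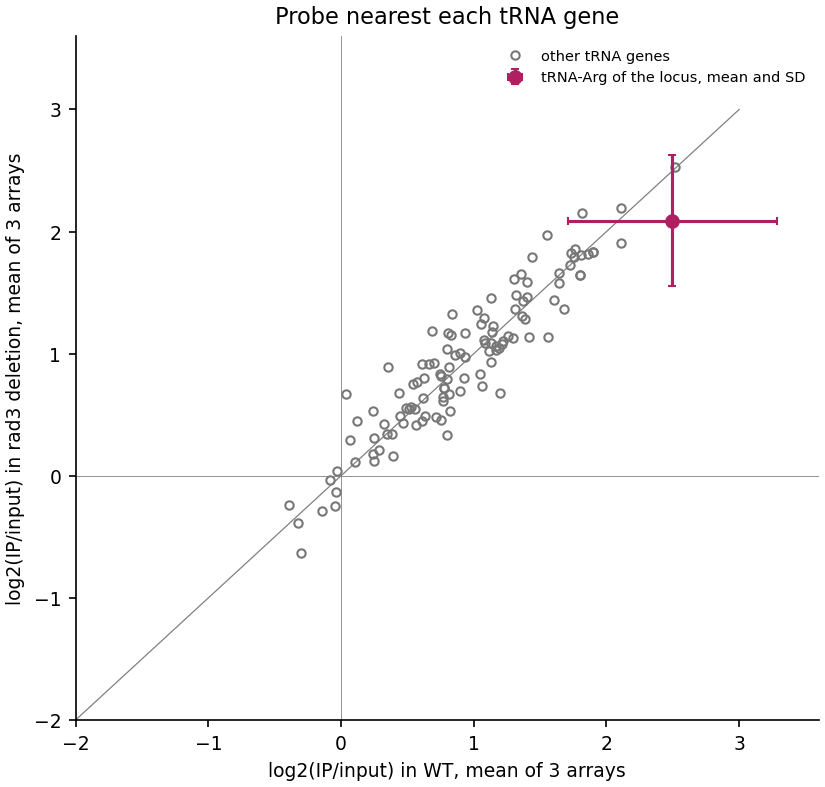
Each point is the probe nearest 1 of 116 tRNA genes, with log2(IP/input) in WT on the horizontal axis and in rad3∆ on the vertical axis, as means of 3 arrays; the line marks equal values. The tRNA-Arg gene of the locus (filled, with SDs) lies near the top at 2.50 and 2.09, and its error bars cross the line of equal values.

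The genes with values most like those of rpt5 over the 6 arrays, by Euclidean distance among 4132 coding genes outside the locus, were fap7 (distance 0.16), mug174 (0.17) and SPAC4C5.03 (0.19). Since they were picked on these same 6 values, they shared the low values of rpt5 on the arrays of slide 1. Of these genes, fap7 read 0.35, 0.71 and 0.83 in WT and 0.34, 0.89 and 0.80 in rad3∆. For cul4 the nearest were sme1 (0.13), tbc1 (0.15) and lsm7 (0.15). fap7, mug174 and lsm7 lie on chromosome III, sme1 on chromosome II, and SPAC4C5.03 and tbc1 elsewhere on chromosome I.

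The members' partners elsewhere in the genome were read from the same fit, as counts with no test. Of the 6 ATPases of the proteasome base, rpt4 and rpt5 were enriched in both strains, with rpt4 at fitted values of 0.53 in WT and 0.55 in rad3∆, and rpt2 was depleted in rad3∆ at -0.62. A gene was called depleted at -0.5 or less, as were 21.1% of coding genes in WT and 21.3% in rad3∆. Of 6 prefoldin genes, pfd1 was enriched in both strains, at 0.66 and 0.59, pfd2 was depleted in rad3∆ at -0.59, and pfd6 was neither. Of 6 kinesin genes measured, klp2, klp5 and klp6 were enriched in WT and klp2 and klp6 in rad3∆, while klp9 and tea2 were depleted in both.

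Among 8 cullin genes and partners, cul1, the scaffold gene of the SCF ligases, was enriched in both strains at 0.50 and 0.52. ddb1 and cdt2, the partners of cul4, were depleted in both, with ddb1 at -0.99 and -0.82 and cdt2 at -0.81 and -0.74. rbx1, the RING subunit gene, was at 0.14 in WT and 0.52 in rad3∆, a difference of 0.38 ± 0.18 (SE) that was not called (limma adjusted p = 0.64). Of 7 genes matched by name for a cation transport list, sod22, kha1 and cta3 were enriched and nhe1 and trk2 depleted in both strains. Whether the gene matched as sod2, which was neither, encodes a transporter was not checked. None of the genes in these lists was called between the strains, as was none of the 8192 genes tested. The median difference over each list lay between -0.11 and 0.06, beside -0.03 over all coding genes.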

How the data were processed

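The authors deposited 1 Agilent Feature Extraction output per array. These hold intensity values that, per the file headers, were background-subtracted and linearly dye-normalized by software version 10.7.1.1 (both arrays numbered 1) or 10.7.3.1, the version the submitters' processing notes give; the deposited log10 ratio is red over green. Per the labels, the IP was green in replicates 1 and 2 and red in replicate 3.

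From these, log2(IP/input) was computed and centred on each array's median nuclear probe, so that a value of 0 does not mean that RPA was absent. The 211 flagged probes were left out. Probes were averaged in windows of 1 kb and over genes, with at least 2 probes each. All 6 arrays entered limma 3.58.1 (R 4.3.3) with strain means and a dye-orientation term, two-sided, with Benjamini-Hochberg adjustment over all features; the fit was tested on simulated data. Exact permutation tests, which shuffle the 6 arrays freely, served single values per array. Other thresholds, window sizes, centrings, background corrections, dye and slide terms and fits without each array were tried as alternatives.

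The named genes were the 6 member genes, every other coding gene of the locus with at least 2 probes, and the 3 genes nearest to rpt5 and to cul4; members and lists were chosen with earlier results of these data known. Same-numbered arrays shared a slide and a scan per the file headers, and their deviations from the strain means correlated at 0.34, 0.31 and 0.51, so the numbers pair the arrays. Positions are those of the array design (a Feb2002 build per the headers); base composition of 108 of 126 segments of 100 kb, the locus included, matched the ASM294v3 reference without an offset, and genes were placed only there.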

Additional observations from a re-analysis of the deposited data

How the results depend on the processing

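The count of strain differences in the locus was 0 for probes, windows, genes and input windows in the main setting and in every alternative run, the replicate block by slide included, under which it was 0 as well. Under the block, 9 windows in place of 10 were enriched in WT and 7 in rad3∆, and exact sign flips within slides, added after the data were seen, gave p from 0.25 to 1 for the single values per array. Enriched windows depended on the threshold, at 17 in WT and 14 in rad3∆ with a log2 value of 0.3 and 1 and 1 with a log2 value of 1, and on the window size, at 17 and 15 with windows of 0.5 kb. Normexp background correction gave 11 in rad3∆; it used median signals, as the files hold no mean signal. Leaving out 1 array gave 4 to 14 in WT and 7 to 10 in rad3∆; where a replicate 3 array was left out, the dye term absorbed the other replicate 3 array in the limma strain difference. Leaving out 1 array moved the strain difference of the core mean between -0.10 and 0.093, that of the peak height between -0.19 and 0.068 and that of the peak width between -0.17 and 1.33 kb; the height difference was 0.022 after scaling arrays to 1 spread, and the width difference was -0.67 kb with 2 kb windows. The exact tests of these values cannot give a p under 0.10, or under 0.25 within slides. None could therefore pass 0.05 in any setting, and nothing is read from that. The gene differences turned sign for rpt5 (-0.025 with normexp, -0.086 without rad3∆ array 2 and up to 0.25 without another array), for sod22 (-0.040 with normexp, -0.0091 with only probes well above background, -0.048 without WT array 2, -0.065 without rad3∆ array 2, and up to 0.079 without another) and for pfd6 (0.16 without WT array 1, 0.012 without WT array 3 and without rad3∆ array 3, 0.038 without rad3∆ array 2, and down to -0.27 without another). The cause was not tested. The differences of pkl1, dpe1 and cul4 kept their sign in all 14 alternatives but not their size, from -0.44 to -0.058 for pkl1, from -0.37 to -0.024 for dpe1 and from -0.11 to -0.052 for cul4, and the lowest adjusted limma p among them was 0.39. The dim IP channel of rad3∆ array 2 limits the 9 probes that were not well above background there, and 3 arrays per strain limit every comparison.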
